A study of Mus musculus with 6 samples.

Results

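The SLAM family receptors and their adaptor SAP were described as 8 genes, Slamf1, Slamf6, Slamf7, Ly9, Cd84, Cd48, Cd244a and Sh2d1a, out of 55450 genes in the table. They were taken by gene symbol, with earlier results of these data known, and each symbol matched 1 gene. The data were transcriptomes of regulatory T (Treg) cells, a Foxp3-dependent CD4 lineage that holds immune responses in check, sorted from tumours about 8 mm in diameter of MC38, a colon carcinoma line that grows in mice. In 3 libraries the Treg cells came from tumours of mice with Tim-3 deficient Treg cells, and in 3 from tumours of mice with Tim-3 sufficient Treg cells. Mice of both groups are labelled C57BL/6, and both carried the same tumour. The gene of the inhibitory receptor Tim-3 is Havcr2. The labels name no deleted allele, no Cre driver, no age and no count of animals, so libraries of one group may or may not stem from different mice, and each p-value reflects library-to-library spread, which may be technical. Libraries are called deficient C1, deficient D and deficient dated, and sufficient A1, sufficient B1 and sufficient dated, after marks in the column names. The dated library of each group carries a calendar date in its name. The question of the comparison is how loss of Tim-3 alters Treg cells in a tumour.

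SLAM family receptors are immunoglobulin-like surface proteins of blood cells. Most of them bind the same receptor on a neighbouring cell, while 2B4, the product of Cd244a, binds CD48. Tyrosine motifs in the tails of most members recruit SAP, a small adaptor consisting mainly of an SH2 domain, which brings in the kinase Fyn. Without SAP the same motifs can recruit phosphatases such as SHP-1, encoded by Ptpn6. In T cells SAP and Ly108, the product of Slamf6, are known for their part in the adhesion of T cells to B cells, in follicular help and in the development of innate-like T cells. Slamf6 is also used as a surface marker of T cells that keep a progenitor-like state in tumours and chronic infection.

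In Tim-3 deficient Treg cells Slamf6 rose 2.41-fold, and no other member passed the threshold. For Ly9 and Slamf1 all deficient libraries lay above all sufficient ones without passing the test. Deficient libraries lay above in this way at 10.9% of all tested genes. Sh2d1a, Cd48, Cd84 and Slamf7 overlapped between the groups, and Cd244a was too low to be tested. All levels are given as log2(TPM + 1), TPM being an abundance per transcript length with the same total in every library. The test was limma's, two-sided, over 12155 genes that reached a value of 1 in 3 or more libraries, and "called" or "passed" means a Benjamini-Hochberg adjusted p below 0.05. Each fold change is the deficient minus the sufficient mean on that scale, which understates changes of genes with low values. The threshold was passed in the higher direction by 0.132% of tested genes, and by 1 of the 7 tested members.

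The 7 receptor genes lie within 394 kb of mouse chromosome 1 (GRCm38, 171559193 to 171953170), in the order Cd244a, Ly9, Slamf7, Cd48, Slamf1, Cd84 and Slamf6. Sh2d1a lies on the X chromosome (42502453 to 42529330, plus strand). The start regions of Slamf6, of Slamf1 and of Cd84, which lies between them, are shown because the 3 genes are neighbours on the same strand, of which Slamf6 was called, Slamf1 did not overlap between the groups and Cd84 did. Each is the RefSeq window (GRCm38.p6) of 250 bases before and 50 after the annotated start, on the plus strand, at chr1:171917212-171917511 for Slamf6, chr1:171766882-171767181 for Slamf1 and chr1:171839447-171839746 for Cd84. Capitals mark a match on either strand to 1 of 4 short motifs, CCGGAA (ETS), TGTGGT (RUNX), CTTTGA (TCF and LEF) or TGTTTAC (FOXO).
Slamf6: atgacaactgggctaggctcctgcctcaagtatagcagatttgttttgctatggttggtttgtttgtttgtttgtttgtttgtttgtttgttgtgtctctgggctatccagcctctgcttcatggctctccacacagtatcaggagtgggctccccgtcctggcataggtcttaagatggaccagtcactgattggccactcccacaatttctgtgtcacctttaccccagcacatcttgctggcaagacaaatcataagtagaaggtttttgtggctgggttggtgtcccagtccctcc
Slamf1: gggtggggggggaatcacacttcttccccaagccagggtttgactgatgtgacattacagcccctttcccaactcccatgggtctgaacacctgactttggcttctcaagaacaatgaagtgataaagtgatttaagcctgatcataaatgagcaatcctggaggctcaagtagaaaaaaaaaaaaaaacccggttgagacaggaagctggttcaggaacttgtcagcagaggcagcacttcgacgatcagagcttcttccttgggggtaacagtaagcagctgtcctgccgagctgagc
Cd84: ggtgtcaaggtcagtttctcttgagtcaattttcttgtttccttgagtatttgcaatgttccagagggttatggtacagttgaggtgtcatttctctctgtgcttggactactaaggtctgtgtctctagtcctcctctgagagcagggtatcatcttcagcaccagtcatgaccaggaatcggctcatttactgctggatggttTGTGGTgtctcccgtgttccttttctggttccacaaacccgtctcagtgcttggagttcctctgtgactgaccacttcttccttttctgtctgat

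None of the 4 motifs was found in the Slamf6 or the Slamf1 window, and Cd84 held 1 match, to the RUNX letters on the plus strand 45 bases before the start. Of 32851 windows in the same table, 14.9% held the ETS letters, 16.8% the RUNX letters, 16% the TCF and LEF letters and 3.65% the FOXO letters. A match or its absence describes these letters in this window and not the binding of a factor. Windows were found for 6 of the 8 members, and not for Ly9 or Sh2d1a. Those of Slamf7 and Cd244a, not shown, held no match, and that of Cd48 held 3. The RefSeq start lay 53 bases from the GENCODE gene start for Slamf6, whose window ended before that gene start, and 4036 bases from it for Slamf7.

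Slamf6, which encodes the receptor Ly108, was the member that differed most. It stood at 7.22 in deficient C1, 7.57 in deficient D and 7.25 in the deficient dated library, against 6.00 in sufficient A1, 6.11 in sufficient B1 and 6.13 in the sufficient dated library. As TPM these were 148, 190 and 151 in deficient C1, D and dated, against 63.1, 68.1 and 69.0 in sufficient A1, B1 and dated. The groups did not overlap, and the lowest deficient library lay 1.09 above the highest sufficient one on the log2 scale. The mean was 7.35 ± 0.20 in deficient and 6.08 ± 0.07 in sufficient libraries (SD, n = 3 each). The log2 fold change was 1.27 ± 0.16 (SE) with a 95% interval of 0.91 to 1.63, and its adjusted p in limma was 0.0281. Slamf6 (171917515 to 171953170, plus strand) had the 17th smallest p of the 12155 tested genes. Between the 4 undated libraries it differed by 1.34, and within the dated pair by 1.12. With the date mark as a block, a fit in which 1.12% of tested genes were called higher, its adjusted p was 0.0119. An antisense transcript, Gm37065, overlaps 1842 bases at the start of Slamf6. Gm37065 stood at 1.73, 3.20 and 2.18 in deficient C1, D and dated, against 1.59, 1.73 and 1.76 in sufficient A1, B1 and dated. Its log2 fold change was 0.67 (adjusted p = 0.545 in limma), and its groups overlapped. Without strand, reads in the shared bases cannot be assigned to either gene.

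The Slamf6 call was kept without the deficient dated library and lost without any 1 of the other 5. Without the deficient dated library the adjusted p was 0.0248, while it was 0.0690 without deficient C1, 0.140 without deficient D, 0.146 without sufficient A1, 0.168 without sufficient B1 and 0.0625 without the sufficient dated library. The log2 fold change in these 6 fits lay between 1.15 and 1.33, and the unadjusted limma p between 8.46e-05 and 0.000344.

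**Figure D1:**
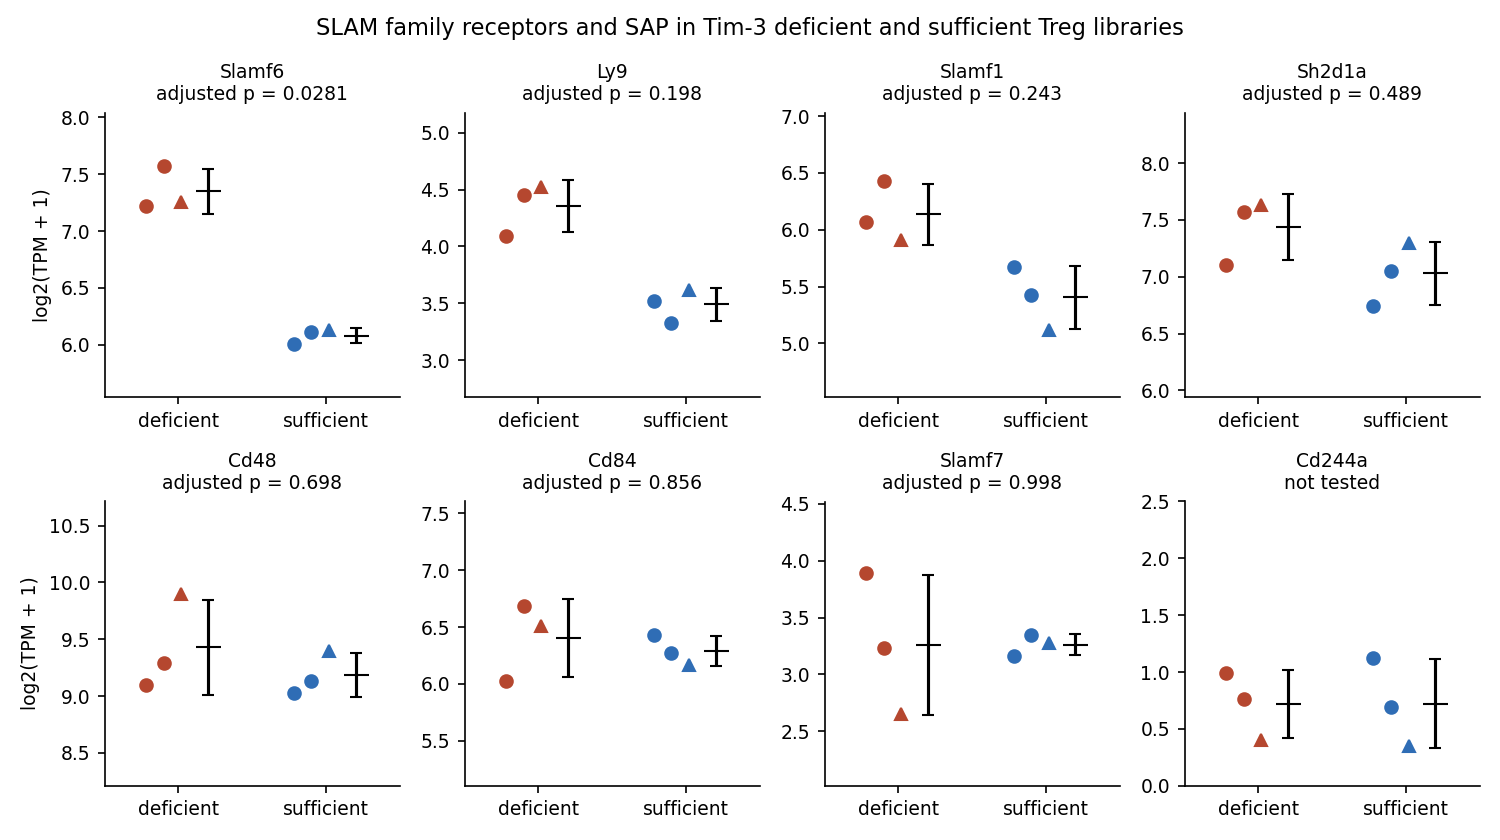
Values of the 8 members in log2(TPM + 1), 1 point per library, as circles (undated) or triangles (dated), and black bars for the group mean with its SD (n = 3); panels share the same height of 2.5 log2 units and have separate origins. Slamf6 stands at 7.35 in deficient and 6.08 in sufficient libraries on average, while Slamf7 spreads from 2.65 to 3.89 in deficient libraries.

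Ly9 and Slamf1 encode CD229 and SLAM itself, and both are receptors that bind their own kind. Ly9 stood at 4.09 in deficient C1, 4.46 in deficient D and 4.52 in the deficient dated library, against 3.52 in sufficient A1, 3.33 in sufficient B1 and 3.62 in the sufficient dated library. The groups did not overlap and were 0.47 apart at their nearest. Its log2 fold change was 0.87 ± 0.22 (SE, 95% interval 0.35 to 1.38, adjusted p = 0.198 in limma), with 0.85 between undated libraries and 0.90 within the dated pair. Slamf1 stood at 6.07 in deficient C1, 6.43 in deficient D and 5.91 in the deficient dated library, against 5.67 in sufficient A1, 5.42 in sufficient B1 and 5.12 in the sufficient dated library. The groups were 0.24 apart at their nearest, and within each of them the dated library was the lowest. Its log2 fold change was 0.73 ± 0.21 (SE, 95% interval 0.24 to 1.22, adjusted p = 0.243), with 0.70 between undated libraries and 0.79 within the dated pair. The date-blocked fit gave an adjusted p of 0.0734 for Ly9 and 0.0659 for Slamf1, so neither was called there. Groups did not overlap, with deficient libraries higher, at 3 of the 7 tested members, and at 10.9% of all tested genes. Cd244a covers the whole of Ly9 on the opposite strand, so reads of Ly9 and Cd244a cannot be fully told apart.

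Sh2d1a, which encodes SAP, was abundant in every library. It stood at 7.10 in deficient C1, 7.57 in deficient D and 7.63 in the deficient dated library, against 6.75 in sufficient A1, 7.05 in sufficient B1 and 7.30 in the sufficient dated library. Deficient C1 lay below the sufficient dated library, so the groups overlapped. The log2 fold change was 0.40 ± 0.21 (SE), its interval of -0.07 to 0.88 held both no change and a rise, and the adjusted p in limma was 0.489. The dated library was the highest of its group in both groups.

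Cd48, which encodes the lipid-anchored ligand of 2B4 and CD2, was the most abundant member. It stood at 9.10 in deficient C1, 9.29 in deficient D and 9.90 in the deficient dated library, against 9.03 in sufficient A1, 9.14 in sufficient B1 and 9.40 in the sufficient dated library. The dated library was again the highest of each group, with a difference of 0.11 between the undated libraries and of 0.50 within the dated pair. The log2 fold change over all libraries was 0.24 with a 95% interval of -0.26 to 0.75 (adjusted p = 0.698 in limma).

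Cd84 encodes another receptor that binds its own kind. It stood at 6.02 in deficient C1, 6.68 in deficient D and 6.51 in the deficient dated library, against 6.43 in sufficient A1, 6.27 in sufficient B1 and 6.16 in the sufficient dated library. Deficient C1 was below all 3 sufficient libraries and the other 2 deficient libraries above them. The log2 fold change was 0.12 with a 95% interval of -0.35 to 0.58 (adjusted p = 0.856 in limma), and it was -0.02 when each library was shifted to the same median. Slamf7, which encodes a receptor known from NK cells, plasma cells and activated macrophages, stood at 3.89 in deficient C1, 3.23 in deficient D and 2.65 in the deficient dated library. It stood at 3.17 in sufficient A1, 3.35 in sufficient B1 and 3.28 in the sufficient dated library. The deficient libraries spread from below to above the sufficient ones, giving a log2 fold change of -0.0048 with a 95% interval of -0.78 to 0.77 (adjusted p = 0.998). Slamf7 differed by 0.30 between undated libraries and by -0.62 within the dated pair. Cd244a had 0.990, 0.700 and 0.320 TPM in deficient C1, D and dated, against 1.18, 0.620 and 0.270 TPM in sufficient A1, B1 and dated. It did not reach the level set for testing.

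Per length, as mean TPM, the receptors of deficient libraries ran from Cd48 at 709 through Slamf6 at 163, Cd84 at 85.4, Slamf1 at 70.1, Ly9 at 19.6 and Slamf7 at 9.17 down to Cd244a at 0.670. In sufficient libraries Cd48 had 585, Cd84 77.4, Slamf6 66.7, Slamf1 41.9, Ly9 10.3, Slamf7 8.62 and Cd244a 0.690. The order of Slamf6 and Cd84 was thus exchanged between the groups. The log2 level of Slamf6 minus that of Cd84 was 1.19, 0.89 and 0.74 in deficient C1, D and dated, and -0.43, -0.16 and -0.03 in sufficient A1, B1 and dated. Its two-sided exact permutation p was 0.1, the smallest that 3 against 3 libraries allow, and 0.16 after adjustment over the 16 such relations computed (n = 3 each). In sufficient libraries the distance of Slamf6 from Cd84 averaged -0.21 ± 0.20 (SD, n = 3), about the spread between libraries.

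Of the summed TPM of the 7 receptors, Slamf6 made up 17.3% in deficient C1, 18.4% in deficient D and 11.8% in the deficient dated library, against 8.55% in sufficient A1, 8.87% in sufficient B1 and 7.97% in the sufficient dated library. That sum was 857, 1031 and 1282 TPM in deficient C1, D and dated, and 738, 767 and 866 TPM in sufficient A1, B1 and dated. The sums overlapped, since deficient C1 lay below the sufficient dated library, and Cd48 supplied between 60.6% and 77.6% of them.

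**Figure D2:**
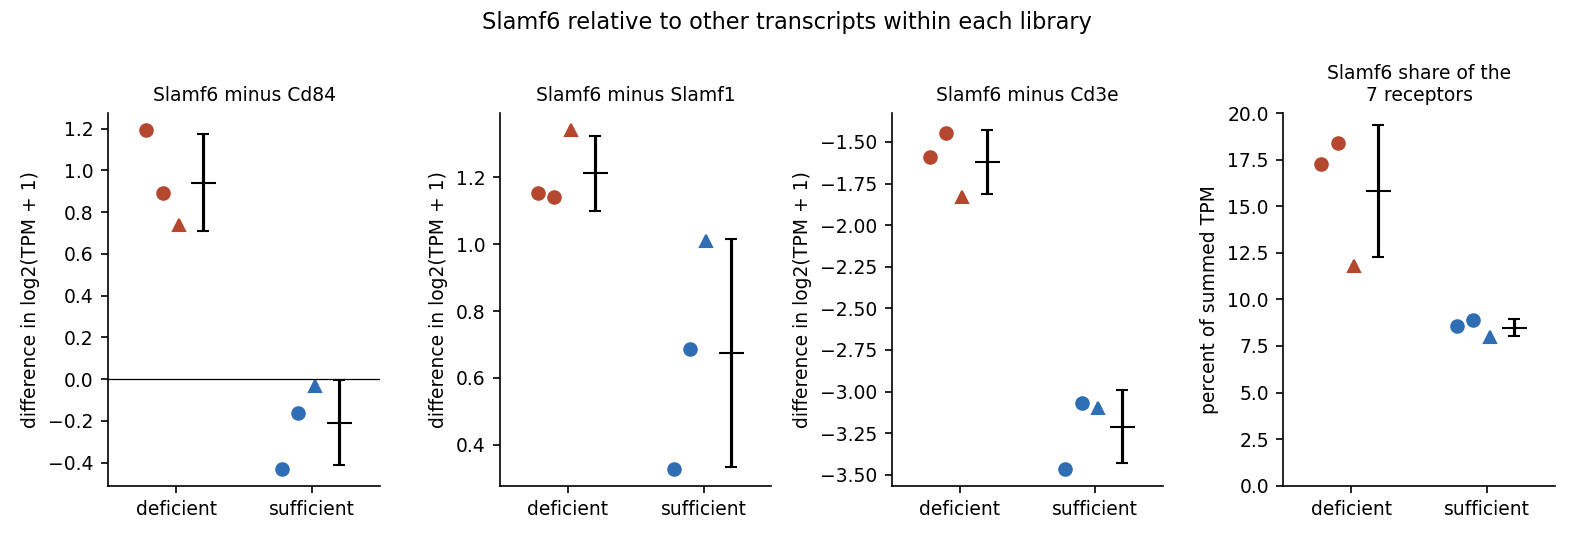
Slamf6 relative to Cd84, Slamf1 and Cd3e as differences in log2(TPM + 1), and as a percent of the summed TPM of the 7 receptors, 1 point per library as circles (undated) or triangles (dated), and black bars for the mean with its SD (n = 3). Slamf6 exceeds Cd84 by 0.94 on average in deficient libraries and lies 0.21 under it in sufficient libraries.

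The sorted cells carried the markers of T and Treg cells, and most of these had values opposite in sign to Slamf6. None of the 9 markers tested was called, and 7 of them had negative log2 fold changes (median of the 9 -0.32, against 0.09 over all tested genes). Groups did not overlap at 3 of the 9, Trac, Cd3d and Cd3e, with deficient libraries lower, where all tested genes gave 6.73%. At 0 of the 9 did all deficient libraries lie higher, where all tested genes gave 10.9%. The 4 of smallest p were Trac at -0.61, Cd3d at -0.51, Cd3e at -0.32 and Il2ra at -0.67. They encode the T cell receptor alpha constant region, the CD3 delta and epsilon chains and the interleukin 2 receptor alpha chain. Il2ra overlapped between the groups, and differed by -1.22 between undated libraries and by 0.43 within the dated pair. The 2 markers with positive values were Foxp3 at 0.31 and Ikzf2 at 0.07. Relative to Cd3e, Slamf6 stood at -1.59, -1.45 and -1.83 in deficient C1, D and dated, against -3.46, -3.07 and -3.10 in sufficient A1, B1 and dated on the log2 scale. The difference between the groups relative to Cd3e was 1.59. Since Cd3e itself had -0.32, subtracting it raises the log2 fold change of any gene by that amount. By the same shift, Ly9 had 1.19 and Slamf1 had 1.05 relative to Cd3e. The size depends on the reference, and Slamf6 differed by 1.36 relative to Cd4 and by 1.87 relative to Trac. Each of the 3 relations to Cd3e had a two-sided exact permutation p of 0.1, and 0.16 after adjustment. That p is the smallest that 3 against 3 libraries allow. In bulk libraries fewer cells of a type and less RNA per cell cannot be told apart.

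Markers of other cells that carry SLAM receptors differed between libraries. Summed over 11 macrophage and monocyte markers, TPM was 1329 in deficient C1, 19.3 in deficient D and 20.9 in the deficient dated library, against 130 in sufficient A1, 932 in sufficient B1 and 27.7 in the sufficient dated library. None of the 7 tested was called, and 5 had negative and 2 positive log2 fold changes. The 4 of smallest p were Apoe at -1.23, Lyz2 at -0.97, Cd68 at -0.48 and C1qa at -0.58. The positive ones were Cd14 at 0.41 and C1qb at 0.21. Without sufficient B1 and deficient C1, the library of each group with the highest sum, the Slamf6 log2 fold change was 1.35 and its adjusted p in limma 0.330, with 0 genes called over all 12155 (748 at an unadjusted p under 0.05). Slamf7 was highest in deficient C1, and its log2 fold change was -0.28 without those 2 libraries.

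Of 9 B and plasma cell markers, 3 were tested and none was called. Their log2 fold changes were 1.49 for Igkc, 0.43 for Ighm and 0.84 for Cd79b. For Igkc every deficient library lay above every sufficient one, which was so at 10.9% of all tested genes. The part of these markers in the Slamf6 result was not tested. Igkc stood at 7.43 to 7.62 in deficient and 5.23 to 7.24 in sufficient libraries, with the groups 0.19 apart at their nearest. It differed by 2.05 between undated libraries and by 0.38 within the dated pair. Ighm stood at 8.63 to 9.11 in deficient and 8.17 to 8.79 in sufficient libraries. Cd79b, a signalling chain of the B cell receptor, stood at 3.86 to 5.54 in deficient and 3.48 to 4.52 in sufficient libraries, and the groups of both Ighm and Cd79b overlapped. Its partner Cd79a stood at 0.21 to 1.07 in deficient and 0.14 to 1.33 in sufficient libraries. Ms4a1, which encodes the B cell protein CD20, was at 0 in all 6 libraries, and the B cell transcription factor Pax5 at no more than 0.0144 in any. Sdc1 and Jchain, also not tested, stood at 2.16 and 0.62 in deficient C1. In the other libraries they stood at no more than 0.78 and 0.31. The summed TPM of the 9 markers was 586 to 793 in deficient and 339 to 614 in sufficient libraries. Among 9 dendritic cell markers, 4 were tested and none was called, with H2-Ab1 at 1.58, Xcr1 at -0.49, Ccr7 at -0.23 and Zbtb46 at 0.03, and sums of 237 to 872 TPM in deficient and 87.7 to 416 TPM in sufficient libraries. H2-Ab1 and Ccr7 together carried most of these sums. Flt3, Clec9a, Siglech and Cd209a were too low to be tested. They were at 0 in all deficient libraries, and in sufficient libraries at no more than 0.86, 0.19, 0.25 and 1.27, in that order. Itgax, also too low to be tested, went the other way in the undated libraries. It stood at 1.21, 0.71 and 0 in deficient C1, D and dated, against 0.06, 0.38 and 0.08 in sufficient A1, B1 and dated. Among 8 NK cell markers, 5 were tested and none was called, with Nkg7 at -1.74, Prf1 at -1.06, Gzma at 1.22 and Klrb1c at 0.70. Their sum was 805 to 1383 TPM in deficient and 2603 to 5171 TPM in sufficient libraries, carried mostly by Nkg7. Of those not tested, Klra8 was at 0 in all 6 libraries and Eomes at no more than 1.06 in any. Ncr1, also not tested, stood at 2.03, 0.33 and 0 in deficient C1, D and dated, against 2.77, 0 and 0 in sufficient A1, B1 and dated. Both CD8 markers were tested and neither was called, at 0.28 for Cd8a and -0.10 for Cd8b1, with sums of 11.8 to 42.5 TPM in deficient and 11.3 to 28.4 TPM in sufficient libraries.

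Havcr2 was lower in deficient libraries, at 3.54, 4.27 and 2.55 in C1, D and dated, than in sufficient libraries, at 5.70, 5.64 and 4.49 in A1, B1 and dated. Its log2 fold change of -1.83 did not pass over all genes (adjusted p = 0.211 in limma). A gene-level value can include exons outside a deleted part. Of the 12155 tested genes, 25 were called, 16 higher and 9 lower (0.206% in either direction and 0.074% lower). The count was 0 without sufficient B1, 0 without deficient D, 2 without sufficient A1, 11 without deficient C1 and 121 without the deficient dated library. With quantile normalization 16 were higher and 22 lower, and with each library shifted to the same median 11 were higher and 19 lower. The median log2 fold change over all tested genes was 0.09 as deposited, 0.0027 with quantile normalization and -0.04 with the median shift. TPM keeps no counts, so read depth is unknown, and each library held 11470 to 12681 genes at 1 TPM or more.

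Along the chromosome 1 cluster some adjacent receptor genes had unlike differences, and a relation to position was not tested. Slamf6 at 1.27 and Slamf1 at 0.73 lie on either side of Cd84 at 0.12, and Ly9 at 0.87 lies beside Slamf7 at -0.0048. In the window reaching 500 kb beyond the cluster on both sides (171059193 to 172453170) 28 other genes were tested, and none was called in limma. Of these, 21 had positive log2 fold changes, a share to be read against 60.1% of all tested genes. The median of the 28 was 0.33, against 0.09 over all tested genes. Groups did not overlap at 2 of the 28 with deficient libraries higher and at 1 with deficient libraries lower, where all tested genes gave 10.9% and 6.73%. The 6 named protein-coding genes of smallest p were Pfdn2 at 0.47, Sdhc at 0.66, Usp21 at 0.66, Cfap126 at 0.85, Tstd1 at -0.63 and Nit1 at -0.40. Ncstn, which encodes nicastrin and is the nearest of the tested protein-coding genes beyond Slamf6, was chosen for its position and had 0.48 ± 0.28 (SE).

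**Figure D3:**
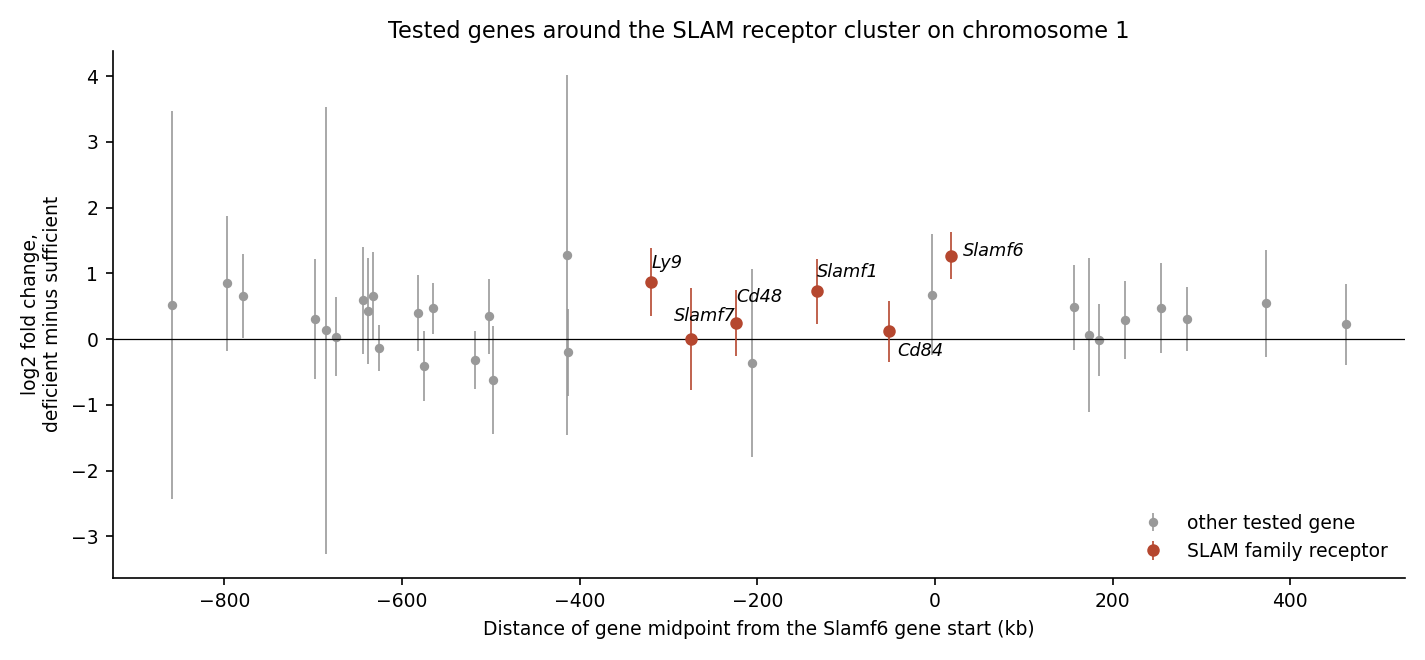
Log2 difference between deficient and sufficient means for the 34 tested genes in the window against the distance of the gene's midpoint from the Slamf6 gene start in kb, with 95% intervals from limma as bars and SLAM receptors in red. Slamf6 at 1.27 stands beside Cd84 at 0.12, and the other genes range from -0.63 to 1.28 with intervals that mostly include 0.

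Other members of the family and their partners were low or did not differ beyond the spread between libraries. Of 5 such genes, 3 were tested and none was called. Slamf8, a receptor of myeloid cells, stood at 4.02 in deficient C1, 1.54 in deficient D and 0.51 in the deficient dated library, against 0.75 in sufficient A1, 1.12 in sufficient B1 and 0 in the sufficient dated library. Slamf9 stood at 2.55, 0 and 0 in deficient C1, D and dated, against 1.30, 2.47 and 0 in sufficient A1, B1 and dated. Both genes were highest, within their group, in deficient C1 and in sufficient B1, the libraries with the most macrophage transcripts. Cd2, which encodes a T cell surface protein that binds CD48, stood between 10.98 and 11.68 in deficient and between 11.43 and 11.76 in sufficient libraries, with a log2 fold change of -0.22 ± 0.21 (SE). The SAP-related adaptor genes Sh2d1b1 and Sh2d1b2 stood at no more than 1.20 and 0.41 in any library and were not tested.

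Signalling genes downstream of SLAM receptors had values in both directions. Of 18 tested genes none was called in limma, 7 had positive and 11 negative log2 fold changes, and their median was -0.16, against 0.09 over all tested genes. Groups did not overlap at 3 of the 18 with deficient libraries higher and at 4 with deficient libraries lower, where all tested genes gave 10.9% and 6.73%. Ptpn6, which encodes the phosphatase SHP-1, stood at 5.94, 5.73 and 5.70 in deficient C1, D and dated, against 6.76, 6.60 and 6.69 in sufficient A1, B1 and dated. Its log2 fold change was -0.89 ± 0.15 (SE) with an adjusted p of 0.0805, and 0.0267 with the date mark as a block. Rasa1, a Ras GTPase-activating protein, stood at 4.37, 4.61 and 4.96 in deficient C1, D and dated, against 5.97, 5.42 and 5.91 in sufficient A1, B1 and dated. Its log2 fold change was -1.12 ± 0.23 (SE) with an adjusted p of 0.127, and 0.0369 with the date mark as a block, where 1.97% of all tested genes were called in either direction. Prkcq, which encodes protein kinase C theta, had 0.78 ± 0.17 (SE, adjusted p = 0.143), and Dok2, an adaptor that recruits Ras GTPase-activating protein, had 0.43 ± 0.13 (SE, adjusted p = 0.251). The kinases that act with SAP, chosen after their values were seen, had -0.78 for Fyn and -0.50 for Lck and did not pass. Fyn differed by -1.14 between undated libraries and by -0.08 within the dated pair.

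**Figure D4:**
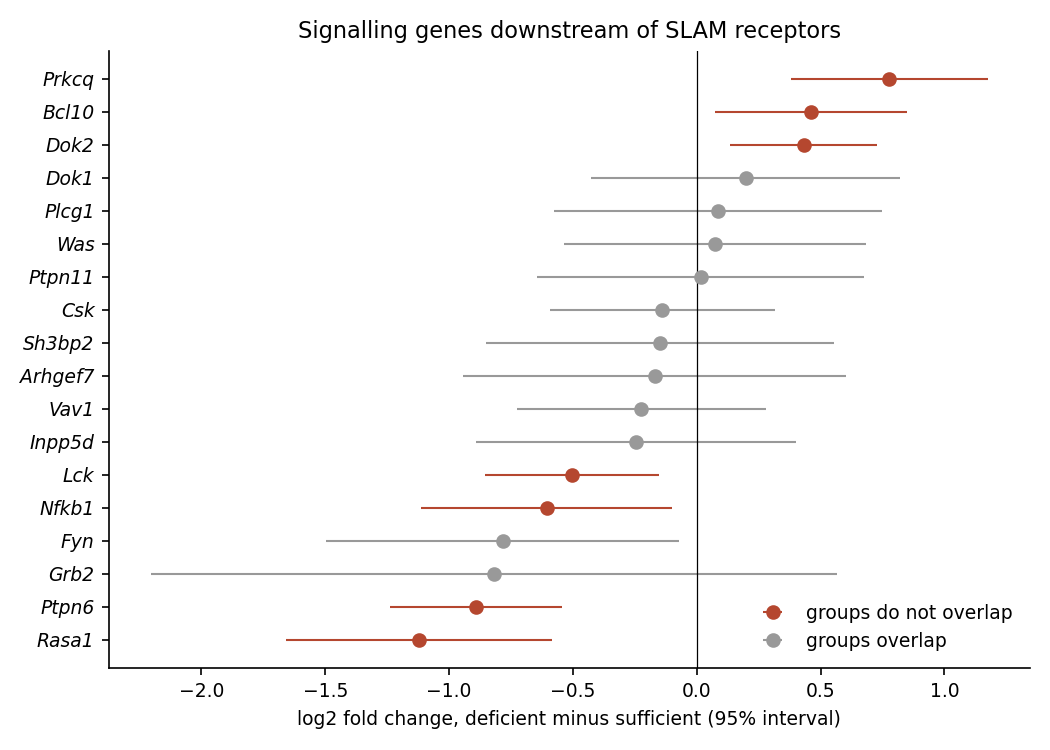
Log2 difference between deficient and sufficient means for the 18 signalling genes with 95% intervals from limma, in red where the groups do not overlap and in grey where they do. Prkcq at 0.78 and Rasa1 at -1.12 stand at the ends, and no gene passed the threshold over all genes.

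Genes of follicular helper and innate-like T cells, in whose development SAP is known to act, gave 10 tested members of 12, with none called, 5 positive and 5 negative values. Maf, a transcription factor of follicular and interleukin 10-producing T cells, stood at 5.88, 6.02 and 6.36 in deficient C1, D and dated, against 7.29, 7.005 and 6.89 in sufficient A1, B1 and dated. Its log2 fold change was -0.98 ± 0.19 (SE) with an adjusted p in limma of 0.106. With the date mark as a block, where 0.856% of tested genes were called lower, the adjusted p was 0.0421. Icos, a costimulatory receptor, had -0.37, Bcl6, the lineage factor of follicular helper cells, 0.49, and Gata3 0.48, and none of these passed. Il21 and Zbtb16 were not tested.

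The genes whose profile over the 6 libraries was nearest to that of a member were found by the root mean square difference after each gene's own mean was subtracted, among 9405 tested genes with a mean of at least 2. For Slamf6 these were Leng9 at 0.05, Emb at 0.10 and Nrp1 at 0.11 log2 units, of which Emb, which encodes embigin, was itself called (log2 fold change 1.44). For Ly9 they were Cd69 at 0.07, Atp1b3 at 0.08 and Casp1 at 0.09, and for Slamf1 Tmem115 at 0.06, Zfp951 at 0.06 and Bud13 at 0.08. Within the family, Ly9 at 0.26 ranked 49th and Slamf1 at 0.34 ranked 167th among the profiles nearest to Slamf6, while Cd84 ranked 3125th. For Sh2d1a the nearest were Aig1 at 0.05, Gm9761 at 0.08 and Sidt1 at 0.08, and its nearest relation in the family was Cd48 at 0.19, which ranked 131st. For Cd48 they were Fam89a, Prr13 and Gm6180 (0.09 each), for Cd84 Ddx60, Ccndbp1 and Btbd6 (0.04 to 0.05), and those for Slamf7 included Lyn and Spsb2 (0.10 each). With 6 libraries and this many genes some profiles lie near by chance, and these distances describe likeness in these libraries.

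**Figure D5:**
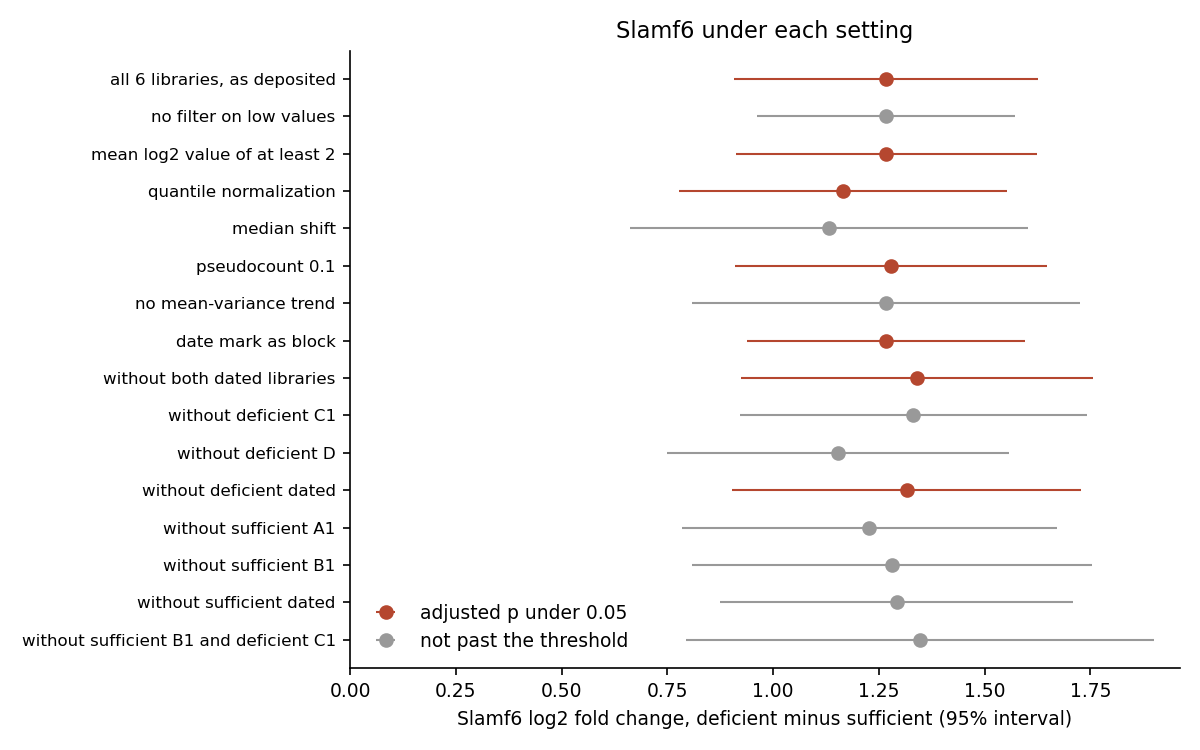
Slamf6 log2 fold change (deficient minus sufficient) with its 95% limma interval under each setting, in red where the adjusted p was under 0.05 and in grey where it was not. The values lie between 1.13 and 1.35 and the call was made with the values as deposited and under 6 of 15 alternatives.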

How the data were processed

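Sorted cells were lysed in plates, and Nextera XT libraries were sequenced as paired 75 bp reads, per the labels' protocols. The submitters' processing notes name STAR, RSEM and limma and the builds GRCm38 and mm10, without versions. The authors deposited log2 values: raised back and less 1, each library summed to between 999999 and 1000001, so they are log2(TPM + 1). Coordinates come from GENCODE mouse release 21 (GRCm38), which holds all 55450 identifiers. No label says that strand was kept.

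Column names gave each library's group but not its replicate number. The deposited log2 values entered limma without a covariate, with eBayes and its mean-variance trend, over the 12155 genes with a value of at least 1 in at least 3 libraries, checked on simulated data. Members, gene lists and motifs, and the date mark as a block, were chosen with earlier results of these data known. All 8 members are named. From each list and from the genes around the cluster, the genes past the threshold and those of smallest p (4 per list, 6 around the cluster) are named. For each tested member the 3 genes of nearest profile are named, except 1 gene near Slamf7 that is not reported here. Alternatives covered the filter, scaling, pseudocount, variance trend, date mark and each library left out. Leaving out sufficient B1 and deficient C1 was chosen after seeing the data. Versions were Python 3.11.15 with matplotlib 3.10.9, and limma 3.58.1 in R 4.3.3.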

Additional observations from a re-analysis of the deposited data

How the results depend on the processing

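Slamf6 kept a positive log2 fold change under all 15 alternatives tested. It was not called at 1.27 with no filter on low values (25798 genes tested), 1.27 without the mean-variance trend, 1.13 with the median shift, or 1.35 without sufficient B1 and deficient C1, where 0 members passed. Leaving out 1 library gave 1.15 to 1.33, with 0 to 1 members past the threshold. Ly9, Slamf1, Sh2d1a and Cd48 kept their sign and none was called. Cd84 changed sign with the median shift (-0.017) and ranged from -0.021 to 0.31 with 1 library left out. Slamf7 had 0.30 without both dated libraries and -0.32 to 0.30 with 1 left out. The median of the 7 tested members, 0.40, lay between 0.26 and 0.58. Over all genes the count of calls was 25, against 1 without a filter, 4 without the trend, 38 with quantile normalization, 240 with the date mark as a block, 215 without both dated libraries, 0 without sufficient B1 and deficient C1, 90 at an adjusted p under 0.1, and 0 to 121 with 1 library left out. Of the signalling genes, 1 was called with quantile normalization, 2 with the date mark as a block, 1 without both dated libraries, and 0 to 1 with a library left out. Of the follicular list 1 was called with the block, 1 without both dated libraries and 0 to 1 with a library left out. The NK list had 1 with the block and 1 without both dated libraries. The T cell and B cell lists had 1 each without both dated libraries, and the B cell list 0 to 1 with a library left out. Why the calls changed between settings was not tested. No paired analysis was possible because the column names carry no replicate number. Read depth is unknown, so low values such as those of Cd244a have no counting interval.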

Other observations

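Of the 25 called genes 2 lie on chromosome 1, which holds 5.99% of tested genes. These are Slamf6 and Ifi208, an interferon-inducible gene 1721 kb beyond Slamf6 that stood at 4.90, 4.88 and 4.77 in deficient C1, D and dated, against 1.23, 1.48 and 1.54 in sufficient A1, B1 and dated. Tcf7, which encodes the transcription factor TCF-1 of naive and progenitor-like T cells, was chosen after its values were seen. It stood at 3.34, 3.97 and 4.30 in deficient C1, D and dated, against 1.45, 1.74 and 3.51 in sufficient A1, B1 and dated. The sufficient dated library lay above deficient C1, so the groups overlapped, and the log2 fold change of 1.64 ± 0.55 (SE) had an adjusted p in limma of 0.297. For Slamf6 the lowest deficient library lay 1.09 above the highest sufficient one.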
